A study of Mus musculus with 6 samples.

Results

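The Meis, Pbx and Pknox genes encode a group of DNA-binding homeobox factors, and 7 of them were described here: Meis1, Meis2, Meis3, Pknox1, Pknox2, Pbx2 and Pbx3. The choice takes them by name, and they are 7 of the 32564 genes with a transcript in the table. All 7 passed the filter on low counts, which left 15012 genes for testing. RNA sequencing had been done on quiescent neural stem cells, stem cells that rarely divide and lie in the subependymal zone along the lateral ventricle, isolated by fluorescence-activated cell sorting. By its title, the study asks how miR-204 from the choroid plexus, which secretes the cerebrospinal fluid, affects how many neural stem cells there are. The comparison is of cells taken after an antagomir against miR-204, a chemically modified antisense oligonucleotide that inactivates a microRNA, with cells taken after vehicle.

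The antagomir group (3 libraries) came from gfap:GFP mice of the strain given as C56BL/6J, 3 months old, 3 days after the miR-204 antagomir was injected into the ventricles. The vehicle group (3 libraries) came from mice of the same line, strain and age, 3 days after an injection of artificial cerebrospinal fluid. The groups rest on the labels' treatment group, since another label, on the treatment protocol, names the antagomir for all 6 samples. All animals of both groups thus carried green fluorescent protein under the promoter of Gfap, which is active in astrocytes as well as in neural stem cells. No control oligonucleotide is named, so blocking miR-204 and receiving any oligonucleotide cannot be told apart. Nothing in the labels tells whether replicates are separate animals or pools, and p-values therefore measure the spread between these libraries only, which may be technical.

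These factors belong to the TALE class of homeobox proteins, named for an extra loop of amino acids in the DNA-binding homeodomain. Meis and Pknox proteins (Pknox is also called Prep) bind Pbx proteins, and the pair binds DNA together and with other homeodomain proteins such as Hox factors. Pbx proteins are held in the nucleus by this pairing. In the subependymal zone MEIS2 is known as a factor of the neuroblasts that travel to the olfactory bulb, where it acts with PAX6 and DLX2 in neuronal fate. Meis1 and Meis2 have been reported as targets of miR-204, and a microRNA lowers its targets mainly through pairing of its seed, bases 2 to 8, with the 3′ untranslated region (3′ UTR) of an mRNA.

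The sequences on which this question turns are the microRNA and the places in the 3′ UTRs that match its seed. The mature microRNAs below come from RefSeq (GRCm38.p6), with the seed in capitals, and are shown because all 3 share the same seed. miR-204-5p lies at chr19:22750610-22750631 on the plus strand, miR-211-5p at chr7:64205831-64205852 on the plus strand, and miR-7670-3p at chr6:38507371-38507393 on the plus strand.
mmu-miR-204-5p: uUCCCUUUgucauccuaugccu
mmu-miR-211-5p: uUCCCUUUgucauccuuugccu
mmu-miR-7670-3p: uUCCCUUUcugaauaucuguaga

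Matches were searched on the transcript strand of the annotated 3′ UTRs (GENCODE M21, build GRCm38). The letters were AAAGGGAA for an 8mer, AAAGGGA for a 7mer-m8, AAGGGAA for a 7mer-A1 and AAGGGA for a 6mer, and an 8mer contains the other kinds and was counted once. The windows below show the 8mer and 7mer matches of the 3 Meis genes, with the match in capitals and the bases before it in lower case, all within the 3′ UTR of the transcript named.
Meis3-201, 8mer, chr7:16185498-16185516, plus strand: aggctgggttcAAAGGGAA
Meis2-202, 7mer-A1, chr2:115864217-115864246, minus strand: tggacattcatgcccaatagtatAAGGGAA
Meis1-201, 7mer-A1, chr11:18881629-18881658, minus strand: tggacattcacgctcagtagcttAAGGGAA
Meis1-208, 7mer-m8, chr11:18883400-18883429, minus strand: tgggattacgtgtggcaatggaaAAAGGGA
Meis1-208, another 7mer-A1, chr11:18882124-18882153, minus strand: taggactggtccaatggccctgcAAGGGAA

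Meis3 held the longest match of the 7 genes. Its 8mer began 12 bases after the stop codon in both coding transcripts with an annotated 3′ UTR, Meis3-201 (3′ UTR of 468 bases) and Meis3-205 (472 bases). Of 14324 protein-coding genes tested and searched in the 3′ UTR of their most abundant coding transcript, 834 (5.82%) held an 8mer and 1948 (13.6%) an 8mer or 7mer-m8. Of the 7 genes 1, Meis3, held such a match in that transcript.

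Of the 19 Meis2 transcripts, the 6 coding ones had an annotated 3′ UTR and were searched. None of these 6 had an 8mer or 7mer-m8, but all 6 held the weaker 7mer-A1. In Meis2-202, Meis2-204, Meis2-205 and Meis2-206 that match began 327 bases after the stop codon, and in Meis2-201 and Meis2-203 the same genomic match began 4 bases after the stop codon. Meis1 had a 7mer-A1 at the corresponding place, 324 bases after the stop codon in Meis1-201 and 4 bases after it in Meis1-209. The 30-base windows of Meis1 and Meis2 that end with this match were identical at 25 bases and differed at 5. The distance to the stop codon was thus nearly the same in Meis1-201 as in Meis2-202, whereas the same Meis1 match began 2708 bases after the stop codon in Meis1-208 and 3869 bases after it in Meis1-206.

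The longer 3′ UTRs of Meis1-208 (3668 bases) and Meis1-206 (5687 bases) added the 7mer-m8 and the other 7mer-A1 shown above. With every transcript searched that had an estimated count and an annotated 3′ UTR, 2 of the 7 genes (Meis1 and Meis3) held an 8mer or 7mer-m8, beside 16.9% of the genes searched. With the 7mer-A1 counted as well in the most abundant coding transcript, 3 of the 7 (Meis1, Meis2 and Meis3) held a match, beside 20.6%. None of the annotated 3′ UTRs of Pbx2, Pbx3, Pknox1 and Pknox2 held any of these letters, down to the 6mer. Such a match is a description of letters, and its absence says only that these letters are not in those annotated 3′ UTRs.

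**Figure D1:**
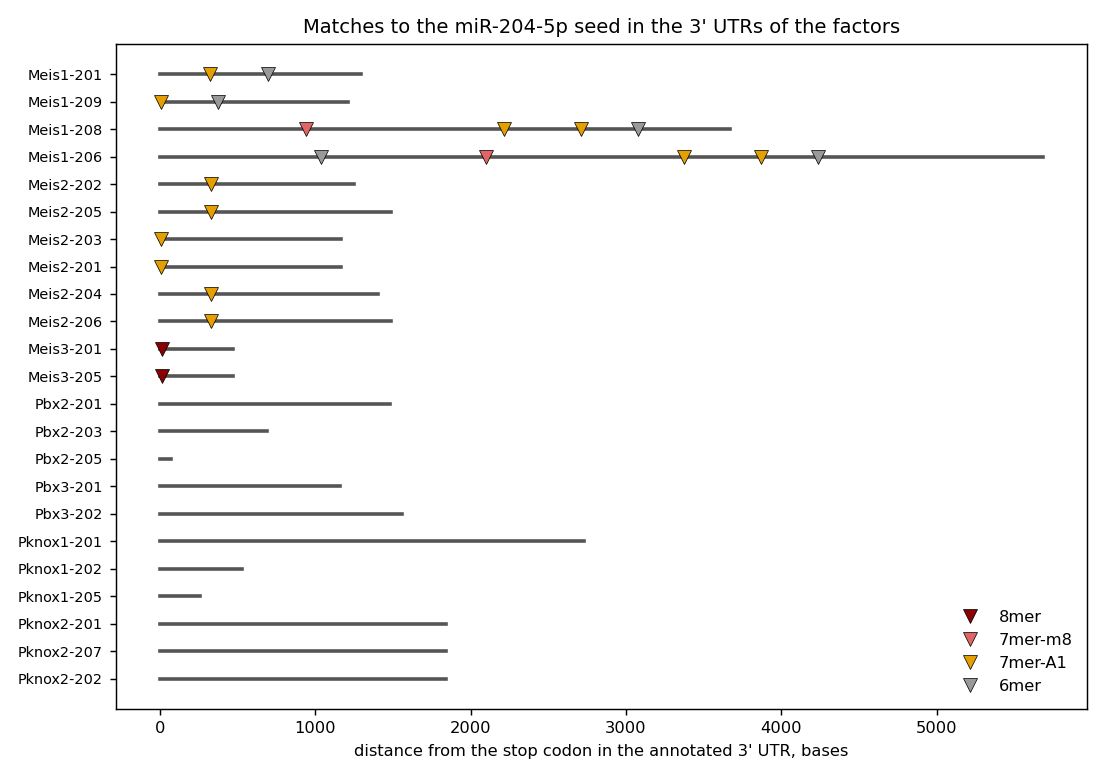
Annotated 3′ UTRs of the coding transcripts of the 7 genes, drawn to scale as lines from the stop codon (x axis, bases), with a triangle where a match to the miR-204-5p seed begins and its colour giving the kind of match. The matches lie in the 3 Meis genes, with the 8mer of Meis3 at 12 bases and the 7mer-A1 of Meis2-202 at 327 bases, and the Pbx and Pknox lines carry none.

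Each library held 14866453 to 19694409 estimated counts, with 17180 to 17975 genes having at least 1 count, and 3 counts corresponded to 0.153 to 0.203 CPM (counts scaled to library size), which covers counting error only. Markers of astrocytes and neural stem cells, which include Gfap, were present in every library, at a summed 8806 to 12059 CPM (10 genes, 0 of them at 0) with antagomir and 11658 to 12624 CPM with vehicle. Oligodendrocyte markers were also abundant, at 14551 to 20532 CPM with antagomir and 9026 to 18828 CPM with vehicle (6 genes, 0 at 0). Ependymal markers were present in every library, at 1014.5 to 1700 CPM with antagomir and 1492 to 1894 CPM with vehicle (5 genes, 0 at 0). Endothelial and choroid plexus markers were low, at 5.60 to 11.6 and 53.5 to 115.6 CPM with antagomir and 7.26 to 19.3 and 76.2 to 100.8 CPM with vehicle, and the defining genes Cldn5, Cdh5, Ttr and Aqp1 were each listed at 0 in at least 1 library. Antagomir replicate 1 and vehicle replicate 1 stood apart from the other libraries of their groups. Their summed neuroblast markers (10 genes, 0 at 0) were 2292 CPM in antagomir replicate 1 and 1512 CPM in vehicle replicate 1, against 949.6 and 1070 CPM in the other antagomir libraries and 591.9 and 656.1 CPM in the other vehicle libraries. Microglia and macrophage markers (8 genes, 0 at 0) were at 83.3 to 236 CPM in the antagomir libraries, against 1665 CPM in vehicle replicate 1 and 107 to 210 CPM in the other vehicle libraries.

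Per unit of transcript length, in TPM, Meis2 was the most abundant of the 7 genes and Pbx2 the least. Averaged over all 6 libraries, the gene levels were 85.7 TPM for Meis2, 40.9 TPM for Meis3, 21.9 TPM for Pknox2, 20.9 TPM for Pknox1, 19.4 TPM for Meis1, 15.4 TPM for Pbx3 and 8.60 TPM for Pbx2. The median of the tested genes was 20.9 TPM, so Pknox1, Pknox2 and Meis1 stood near the middle of the table and Meis2 at percentile 85.3. The ranges over libraries of all neighbours in this order overlapped. Meis2 was nevertheless above Meis3, and Meis3 above Pknox2, in 6 of 6 libraries, while the other neighbours kept their order in 4 or 5 of the 6 libraries. Meis2 made up 36.3 to 43.8% of the summed TPM of the 7 genes in the antagomir libraries and 38.0 to 42.3% in the vehicle libraries.

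**Figure D2:**
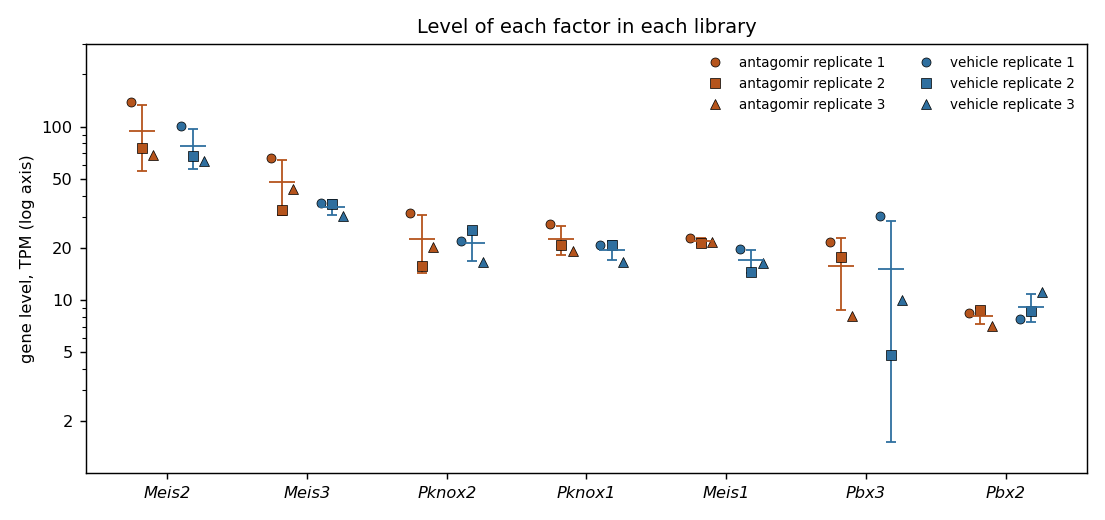
Gene level in TPM (log axis) of each of the 7 genes in each library, antagomir left and vehicle right of each gene's tick, with the horizontal bar at the mean and whiskers of 1 SD (n = 3 each). Meis2 lies highest, between 63.6 and 138.6 TPM, and Pbx3 has the widest spread, between 4.77 and 30.4 TPM.

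None of the 7 genes passed edgeR's quasi-likelihood test for a difference between the groups. In that test 0 of 15012 genes (0%) passed a Benjamini-Hochberg adjusted p of 0.05, the smallest adjusted p was 0.949, and 616 genes (4.1%) had an unadjusted p under 0.05, with 0 of the 7 among them. DESeq2 called 5 genes, 0 of them among the 7, with 917 genes at an unadjusted p under 0.05, and limma-voom called 0. The log2 fold changes of antagomir over vehicle were positive for 5 of the 7 genes and negative for Pbx2 and Pbx3, with a median of 0.21, beside a median of -0.006 over all tested genes, of which 49.1% were positive. Leaving out antagomir replicate 1 alone turned this, to 3 positive and 4 negative values with a median of -0.18. Leaving out vehicle replicate 2 or vehicle replicate 3 gave medians of 0.11 each, and leaving out vehicle replicate 1 gave 0.33. With both libraries numbered 1 left out, a choice made after seeing the data, there were 5 positive and 2 negative values with a median of 0.12. In CPM, 0 of the 7 genes had groups that did not overlap, beside 5.07% of the tested genes with all antagomir libraries higher and 5.45% with all of them lower. In bulk samples a change in the number of cells of a type and a change in RNA per cell cannot be told apart.

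Meis1, a cofactor of Hox proteins known from blood stem cells and leukemia (ENSMUSG00000020160.18, chromosome 11, 18879817 to 19018985, minus strand, GRCm38), varied least of the 7 between the antagomir libraries (coefficient of variation 3.32% in CPM). Between the vehicle libraries its coefficient of variation was 14.3%, above those of Pknox1 (4.88%) and Meis3 (8.45%) and below those of Meis2, Pbx2, Pbx3 and Pknox2. Meis1 had 22.9, 21.2 and 21.6 TPM in antagomir replicates 1, 2 and 3, against 19.7, 14.6 and 16.3 TPM in vehicle replicates 1, 2 and 3. Every antagomir library was above every vehicle library on this scale, as was so for 7.05% of all tested genes. In CPM, which ignores transcript length, it had 37.4, 37.1 and 35.2 CPM with antagomir and 36.3, 27.3 and 31.3 CPM with vehicle, and there the groups overlapped through vehicle replicate 1. The log2 fold change was 0.21 (SE 0.18, 95% interval -0.21 to 0.63, edgeR adjusted p = 0.949).

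Meis2 (ENSMUSG00000027210.20, chromosome 2, 115863064 to 116065839, minus strand) had 138.6, 75.3 and 68.5 TPM in antagomir replicates 1 to 3, against 100.3, 67.6 and 63.6 TPM in vehicle replicates 1 to 3. The library numbered 1 was the highest in each group, and the groups overlapped. The mean level was 130.3 ± 61.9 CPM with antagomir and 111.5 ± 35.3 CPM with vehicle (SD, n = 3 each), a log2 fold change of 0.23 (SE 0.34, 95% interval -0.56 to 1.01, edgeR adjusted p = 0.956). It became -0.24 without antagomir replicate 1 and 0.53 without vehicle replicate 1. With both of these libraries left out, a choice made after seeing the data, it was 0.053.

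Meis3, whose product binds Pbx proteins and is known from hindbrain patterning in frog embryos (ENSMUSG00000041420.18, chromosome 7, 16175090 to 16186504, plus strand), had 66.0, 32.8 and 43.9 TPM in antagomir replicates 1 to 3, against 36.3, 35.9 and 30.5 TPM in vehicle replicates 1 to 3. Antagomir replicates 1 and 3 lay above all vehicle libraries and antagomir replicate 2 lay among them. Its log2 fold change, 0.34 (SE 0.24, 95% interval -0.21 to 0.90, edgeR adjusted p = 0.949), was the highest of the 7, and its unadjusted p of 0.188 was the smallest. Without antagomir replicate 1 it was 0.10, and with both libraries numbered 1 left out it was 0.17.

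Pknox1, also called Prep1, competes with Meis proteins for Pbx partners (ENSMUSG00000006705.13, chromosome 17, 31564734 to 31607693, plus strand). It had 27.2, 20.8 and 19.1 TPM in antagomir replicates 1 to 3, against 20.7, 20.8 and 16.6 TPM in vehicle replicates 1 to 3, so that on this scale only antagomir replicate 1 was above all vehicle libraries. In CPM it had 59.8, 47.0 and 38.6 CPM with antagomir and 42.0, 40.5 and 38.1 CPM with vehicle, and antagomir replicates 1 and 2 were above all vehicle libraries. The log2 fold change was 0.27 (SE 0.20, 95% interval -0.19 to 0.73, edgeR adjusted p = 0.949), and 0.085 without antagomir replicate 1.

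Pknox2, its close relative (ENSMUSG00000035934.16, chromosome 9, 36890982 to 37147407, minus strand), had 31.7, 15.6 and 20.3 TPM in antagomir replicates 1 to 3, against 21.8, 25.4 and 16.6 TPM in vehicle replicates 1 to 3. The antagomir libraries held both the highest and the lowest level of the 6. The log2 fold change was 0.006 (SE 0.29, 95% interval -0.67 to 0.68, edgeR adjusted p = 0.999). The ratio of Pknox1 to Pknox2 in TPM was 0.859, 1.33 and 0.943 with antagomir and 0.950, 0.819 and 1.00 with vehicle, so the pair stood at about equal levels in both groups.

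Pbx2, a widely expressed Pbx factor (ENSMUSG00000034673.14, chromosome 17, 34591266 to 34597400, plus strand), had 8.44, 8.75 and 7.09 TPM in antagomir replicates 1 to 3, against 7.72, 8.58 and 11.0 TPM in vehicle replicates 1 to 3. The groups overlapped, with vehicle replicate 3 the highest. Its log2 fold change was -0.23 (SE 0.27, 95% interval -0.85 to 0.40, edgeR adjusted p = 0.953). Pbx2 overlaps the gene Gpsm3 on the same strand over 489 bases, and Gpsm3 averaged 14.7 counts a library.

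Pbx3, the Pbx factor linked to neuronal development (ENSMUSG00000038718.15, chromosome 2, 34171457 to 34373142, minus strand), had 21.5, 17.7 and 8.01 TPM in antagomir replicates 1 to 3, against 30.4, 4.77 and 9.98 TPM in vehicle replicates 1 to 3. It varied most of the 7 genes, with a coefficient of variation in CPM of 48.9% among antagomir libraries and 87.0% among vehicle libraries. The log2 fold change of -0.04 (SE 0.62, 95% interval -1.47 to 1.40, edgeR adjusted p = 0.995) leaves a wide interval. It was -0.48 without antagomir replicate 1 and 0.95 without vehicle replicate 1. The ratio of Pbx3 to Pbx2 in TPM followed, at 2.55, 2.03 and 1.13 with antagomir and 3.94, 0.556 and 0.905 with vehicle, so neither Pbx gene was the more abundant one in every library.

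**Figure D3:**
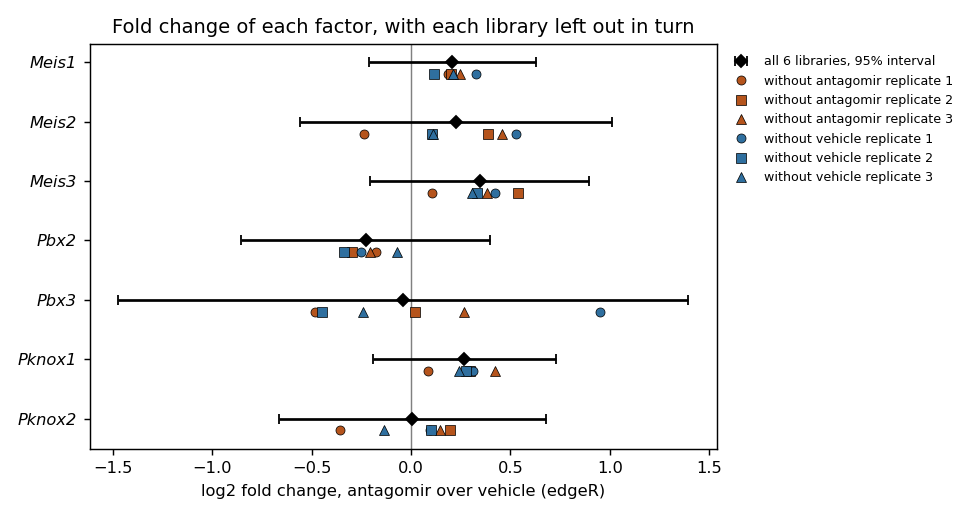
Log2 fold change of antagomir over vehicle for each gene from edgeR (diamond, with the 95% interval from the approximate SE), and below it the same value with each library left out in turn (brown for antagomir, blue for vehicle). All 7 intervals span 0, and Pbx3 moves most, from -0.48 without antagomir replicate 1 to 0.95 without vehicle replicate 1.

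The summed neuroblast, neuron and progenitor markers were highest in the library numbered 1 of each group. In CPM this was so for Meis2 and Pbx3, and also for Meis1, Meis3 and Pknox1, but not for Pknox2 and Pbx2. Relative to its mean over the 6 libraries, on the log2 scale of CPM, Meis2 was at 0.74, -0.26 and -0.45 in antagomir replicates 1 to 3 and at 0.33, -0.40 and -0.42 in vehicle replicates 1 to 3. Pbx3 was at 0.59, -0.14 and -0.86 in antagomir replicates 1 to 3 and at 1.01, -1.53 and -0.55 in vehicle replicates 1 to 3. The summed neuroblast markers were at 0.96, -0.14 and -0.31 in antagomir replicates 1 to 3 and at 0.36, -0.99 and -0.84 in vehicle replicates 1 to 3. The libraries numbered 1 were thus the highest of their group for all 3, and vehicle replicate 2 was the lowest of all for Pbx3 and the neuroblast markers. The mature and striatal neuron markers (10 genes, 0 at 0) summed to 1000, 561 and 556 CPM with antagomir and 704.5, 540 and 496 CPM with vehicle. The activated stem cell and progenitor markers (6 genes, 0 at 0) summed to 1155, 588 and 596 CPM with antagomir and 928, 392 and 381 CPM with vehicle. Single genes carried much of these 2 sums. In antagomir replicate 1, Ccnd2 had 835 CPM of the progenitor sum and Ppp1r1b 567 CPM of the neuron sum. Not every marker followed its sum. Mki67 had 49.0, 50.5 and 43.1 CPM with antagomir, and Adora2a had 11.0, 18.5 and 15.0 CPM with vehicle. Cd24a had 283, 377 and 329 CPM with antagomir, while the other neuroblast markers were highest in the libraries numbered 1. The part of neuroblasts, neurons and progenitors in the levels of Meis2 and Pbx3 was not tested.

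**Figure D4:**
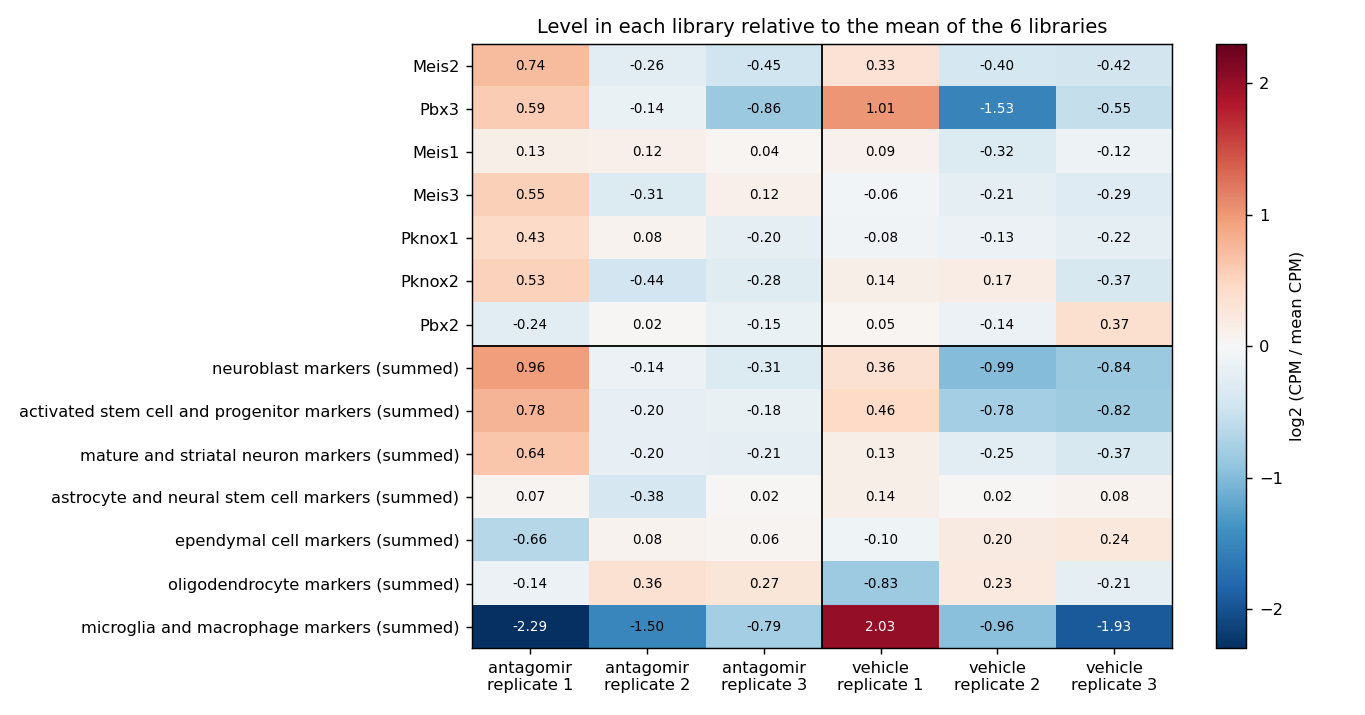
Level of each of the 7 genes (upper block) and summed level of marker genes (lower block) in each library, as log2 of CPM over the mean CPM of the 6 libraries, with antagomir libraries left of the line and vehicle libraries right. Meis2, Pbx3 and the neuroblast markers are high in antagomir replicate 1 and vehicle replicate 1, while Meis1 stays within -0.32 to 0.13 and the microglia markers reach 2.03 in vehicle replicate 1. Meis1, Meis3 and Pknox1 are also highest in the library numbered 1 of each group.

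Among the genes whose level followed that of Meis2 most closely over the 6 libraries, by Pearson's r of log2 CPM among 10518 genes, were Zeb1, a zinc-finger repressor (r = 0.994), and Uchl1, a neuronal deubiquitinase (r = 0.994). Zeb1 had 95.4, 65.9 and 60.3 CPM in antagomir replicates 1 to 3, against 84.7, 64.5 and 61.3 CPM in vehicle replicates 1 to 3. For Meis1 they were Stil, a protein of centriole formation (r = 0.988), Tab1, an activator of the kinase TAK1 (r = 0.985), and Kif22, a mitotic kinesin (r = 0.982). Stil had 25.1, 16.6 and 18.1 CPM with antagomir and 16.8, 0.245 and 2.39 CPM with vehicle, a much wider range than that of Meis1. These r values are the highest of many over only 6 libraries and carry no test.

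The 7 genes had 70 transcripts in the files, of which 5 were at 0 in all 6 libraries and 35 were tested. Over all 40212 tested transcripts edgeR called 0 (0%), with 981 at an unadjusted p under 0.05, and limma-voom called 0. Of the 35 transcripts tested, 23 had a positive log2 fold change and 0 an unadjusted p under 0.05. The smallest p, 0.0748, was that of Meis1-206, the transcript with the longest 3′ UTR, which had 0.141, 0.427 and 0.124 TPM in antagomir replicates 1 to 3 and 0.603, 0.961 and 0.394 TPM in vehicle replicates 1 to 3. Its log2 fold change was -1.55 (edgeR, SE 0.74, 95% interval -3.30 to 0.20). kallisto divides reads among overlapping transcripts by a model, and the error of that division is not in these values.

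Meis1-201 was the most abundant form of Meis1 and made up 56.6, 43.4 and 62.3% of its TPM with antagomir and 62.9, 64.5 and 54.1% with vehicle. The 2 transcripts with the 7mer-m8, Meis1-206 and Meis1-208, made up 4.80, 9.27 and 0.574% with antagomir and 5.42, 6.60 and 10.9% with vehicle. Meis2 was spread over more forms, and its first, Meis2-202, made up 37.6, 29.5 and 19.4% with antagomir and 27.9, 30.7 and 19.7% with vehicle. The transcripts with the 7mer-A1 close to the stop codon, Meis2-201 and Meis2-203, made up 22.0, 11.98 and 15.9% of its TPM with antagomir and 19.0, 17.2 and 20.3% with vehicle. Those with it 327 bases after the stop codon made up 53.7, 50.4 and 44.1% with antagomir and 52.3, 43.0 and 38.5% with vehicle, so in every library the larger part had the match at the greater distance.

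Much of Meis3 was assigned to Meis3-202, a form that keeps an intron and is annotated as not coding. Its share was 30.0, 32.6 and 36.4% in antagomir replicates 1 to 3, against 43.0, 44.2 and 36.5% in vehicle replicates 1 to 3, and the groups did not overlap, though antagomir replicate 3 and vehicle replicate 3 differed little. The difference was -8.24 percentage points (exact two-sided permutation p = 0.1, the smallest that 3 against 3 allows, adjusted p = 0.467 over 14 shares). Meis3 was 1 of the 7 with every antagomir library lower in the share of its most abundant transcript, as was so for 3.9% of 11167 genes. The transcripts with the 8mer, Meis3-201 and Meis3-205, made up 41.0, 50.8 and 51.0% with antagomir and 46.0, 34.0 and 48.3% with vehicle, and these overlapped.

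The share of coding transcripts of Pknox1 was 97.4, 92.5 and 87.8% in antagomir replicates 1 to 3, against 84.6, 79.4 and 84.1% in vehicle replicates 1 to 3, without overlap, a difference of 9.86 percentage points (exact two-sided permutation p = 0.1, adjusted p = 0.467). In estimated counts, where short forms weigh less, the coding share of Pknox1 was 93.0 to 98.8% over the 6 libraries. The coding share of Meis3 was 52.4, 53.4 and 58.1% with antagomir and 50.1, 38.9 and 52.2% with vehicle, again without overlap (exact two-sided permutation p = 0.1, adjusted p = 0.467), and much of what was not coding was Meis3-202. Pknox1 and Meis3 were thus 2 of the 7 with every antagomir library higher in the coding share, beside 4.76% of 8831 genes. Those 8831 leave out genes whose transcripts were all coding, as were those of Pbx2. Pbx2 stood at 100% in every library, so its coding share, 1 of the 14 shares, could not differ. Of the 14 shares, the other 11 had exact p-values of 0.2 to 1, and none could pass 0.05 in this design.

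**Figure D5:**
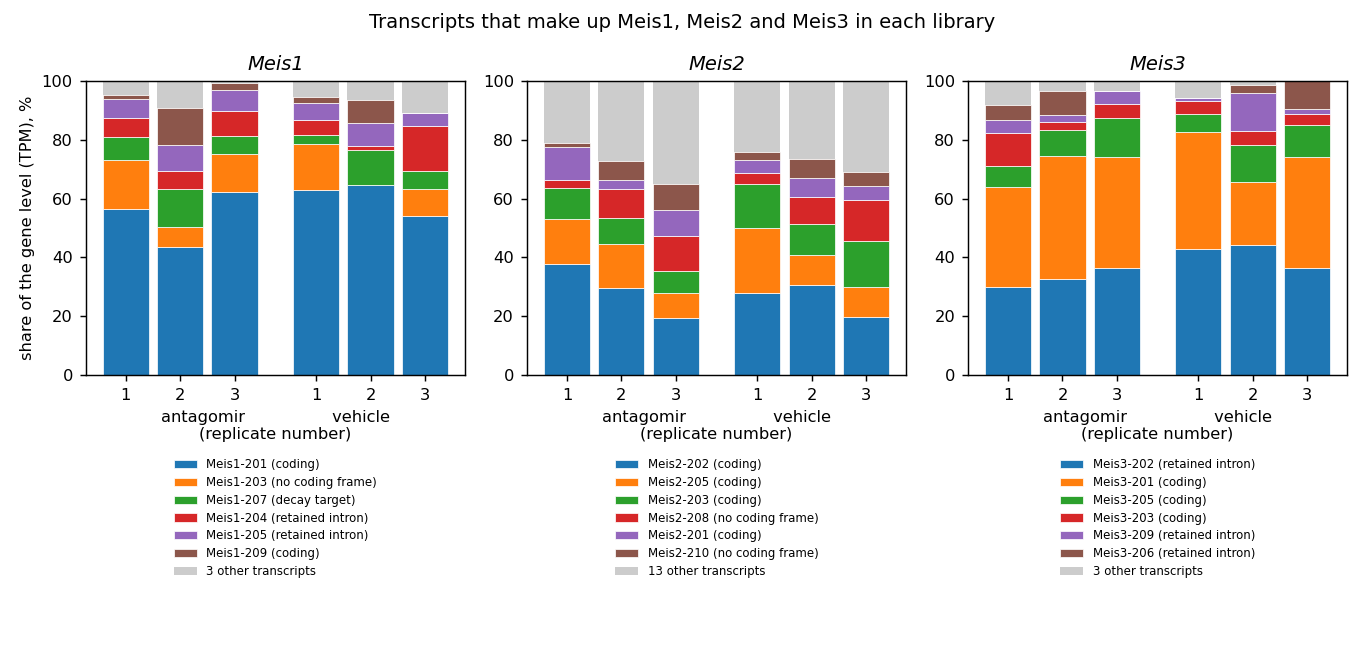
Share of each gene's TPM (y axis, percent) assigned to its 6 most abundant transcripts and to all others, for Meis1, Meis2 and Meis3 in each library, antagomir bars left and vehicle bars right. Meis1-201 holds 43.4 to 64.5% of Meis1, and Meis3-202, which keeps an intron, holds 30.0 to 44.2% of Meis3.

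Other TALE genes were listed to set the 7 beside their class. Of 9 genes, 4 were tested, 0 were called, 1 had a positive and 3 a negative log2 fold change, with a median of -0.24 that was 0.073 without antagomir replicate 1 and 0.12 with both libraries numbered 1 left out. Tgif1, a repressor in TGF-beta signalling, had 25.8, 45.5 and 43.0 CPM in antagomir replicates 1 to 3, against 53.5, 39.1 and 61.0 CPM in vehicle replicates 1 to 3 (log2 fold change -0.43, edgeR adjusted p = 0.949). Its relative Tgif2 averaged 23.2 ± 6.48 CPM with antagomir and 25.2 ± 3.11 CPM with vehicle. The patterning factors Irx3 and Irx5 averaged 12.9 ± 5.66 and 26.8 ± 11.4 CPM with antagomir, against 16.5 ± 2.84 and 25.2 ± 9.33 CPM with vehicle (SD, n = 3 each). Irx4 and Irx6 were listed at 0 in all libraries.

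Hox genes, the classic partners of these factors in the trunk and hindbrain, were nearly absent from the table. Of 39 Hox genes 0 passed the filter on low counts, 19 were listed at 0 in all 6 libraries, and the one with the most counts, Hoxc9, had 61.0 estimated counts in the 6 libraries together and a mean of 0.434 TPM.

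The partners and reported targets of MEIS2 in olfactory neurogenesis were the homeobox genes Pax6, Dlx1, Dlx2, Dlx5, Dlx6 and Gsx2, the zinc-finger factors Sp8 and Sp9, the microtubule gene Dcx and the dopamine-synthesis gene Th. Of these 10 genes 9 were tested and 0 were called, with 0 at an unadjusted p under 0.05 (edgeR). All 9 had a positive log2 fold change, with a median of 0.98, beside -0.006 over all tested genes. The neuroblast markers did likewise, with 10 of 10 positive and a median of 1.03. Dlx1, Dlx2, Dlx5 and Dcx are among the neuroblast markers too, so the 2 lists are not separate measurements. With 1 library left out the median of the partners and reported targets ran from 0.27 without antagomir replicate 1 to 2.03 without vehicle replicate 1. It was 0.57 without vehicle replicate 3. It was 1.38 with both libraries numbered 1 left out.

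Sp8 had the smallest p of that list, with 27.3, 8.63 and 6.58 CPM in antagomir replicates 1 to 3, against 8.66, 1.35 and 1.12 CPM in vehicle replicates 1 to 3 (log2 fold change 1.93, SE 0.89, edgeR unadjusted p = 0.0604 and adjusted p = 0.949). Dlx1 had 400.2, 163 and 119 CPM with antagomir and 210.2, 57.3 and 55.5 CPM with vehicle. Dlx2 had 334, 138 and 182 CPM with antagomir and 211, 88.3 and 98.6 CPM with vehicle. In all of these genes the library numbered 1 was the highest of its group, as for Meis2, and the groups overlapped. Dlx5 averaged 47.3 ± 31.0 CPM with antagomir and 24.0 ± 22.3 CPM with vehicle, and Pax6 averaged 50.05 ± 11.9 CPM with antagomir and 44.4 ± 4.20 CPM with vehicle (SD, n = 3 each).

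Among 13 reported miR-204 targets, which include Meis1 and Meis2, 12 were tested and 0 were called (0 at an unadjusted p under 0.05), with 8 positive and 4 negative log2 fold changes and a median of 0.22. That median was 0.083 without antagomir replicate 1, 0.11 without vehicle replicate 2 and 0.43 without vehicle replicate 1. Sox4, a factor of progenitors and immature neurons, had 659, 258 and 316 CPM in antagomir replicates 1 to 3, against 383, 174 and 172 CPM in vehicle replicates 1 to 3 (log2 fold change 0.76, edgeR adjusted p = 0.949). Creb1, a cAMP-responsive factor, averaged 70.4 ± 20.2 CPM with antagomir and 53.2 ± 10.7 CPM with vehicle, and Sirt1, a deacetylase, averaged 27.4 ± 8.76 CPM with antagomir and 20.8 ± 3.89 CPM with vehicle. Dcx, which labels migrating neuroblasts, had 274, 60.8 and 61.1 CPM with antagomir and 142, 25.1 and 17.4 CPM with vehicle. The log2 fold changes of Meis1 (0.21) and Meis2 (0.23) were the middle values of this list and so set its median by construction.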

How the data were processed

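Sorted-cell RNA was made into cDNA with a low-input SMART-Seq v4 kit, which does not mark strand, and sequenced as 100 bp read pairs, per the labels' protocols. kallisto, sleuth and the build mm10 are named in the submitters' processing notes, and their versions are not given in the sources used here. Deposited values are kallisto's estimated counts per transcript and TPM (estimates divided by effective length and scaled to a common total), per the file headers. Of 99567 transcripts 98294 (98.7%) matched GENCODE M21 (GRCm38) by identifier with the version ignored, and 1273 without a match (0.524 to 0.586% of the counts) were left out. Sums of estimated counts per gene were rounded and tested in R 4.3.3 with edgeR 4.0.16 (TMM scaling, filterByExpr at its minimum count of 10, quasi-likelihood with robust dispersion, no covariate), adjusted over all tested genes, and likewise per transcript. TPM was summed per gene. The SE was taken as the absolute log2 fold change over the square root of F. Shares were compared by exact permutation over libraries. The common coefficient of variation between libraries was 36.2%. The tests were tried on simulated counts. The chi-square per gene between libraries was 23.6 to 98.6 over the 15 pairs, far above sampling noise.

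3′ UTRs were built from the stop codons and exons of the annotation. The file's lengths of Pknox1-201, Pknox1-202, Pknox1-205 and Pknox2-201 differ from that annotation, so the index was of another version. Genes were named by rule: all 7, the 4 with the smallest p of each list, and the 3 with the highest r to Meis1 and Meis2, leaving out Gm and Rik names and pseudogenes and means under 10 CPM. A gene it took is not reported here. Pax6 and Hoxc9 were not taken by this rule but added once their values were known. The members, lists and alternatives were chosen with earlier results of these data known, and the lists come from general knowledge. Alternatives were other scaling factors and filters, length-scaled counts, DESeq2 1.42.0, limma 3.58.1 on voom values and on log2 TPM plus 1 or 0.1, the replicate number as a block, each library left out and both libraries numbered 1 left out.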

Additional observations from a re-analysis of the deposited data

How the results depend on the processing

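Meis1, Meis3, Pbx2 and Pknox1 kept the direction of their log2 fold change in all 17 alternatives run for each, and none of the 7 genes passed an adjusted p of 0.05 in any. With each library left out in turn, Meis2 ranged from -0.24 to 0.53, Pbx3 from -0.48 to 0.95 and Pknox2 from -0.36 to 0.20, each lowest without antagomir replicate 1. Pbx3, -0.04 in the report, was 0.19 with the replicate block, 0.19 with limma-voom, 0.31 and 0.36 on log2 TPM plus 1 and plus 0.1, and 0.49 with both libraries numbered 1 left out. Pknox2, 0.006 in the report, was -0.017 with upper quartile factors, -0.037 with the replicate block, -0.026 with limma-voom and -0.28 with both libraries numbered 1 left out. The cause was not tested. Same-numbered libraries deviated together little (correlations of 0.19, 0.075 and 0.028), so the numbers were not taken as pairs, and 1 of 3 antagomir libraries correlated best with its own number; the replicate block called 0 genes. The count of genes called was 5 with DESeq2 and 0 in the other 16 alternatives, and that of transcripts was 0 in all 10. The number of genes with a seed match was 2 with any transcript searched and 3 with the 7mer-A1 counted, by the construction of the search. All 49 alternative values for the share of the most abundant transcript moved from the value in the report by less than the SD between replicates, pooled over the groups. Some of the differences themselves were larger than that SD, such as -10.6 percentage points for Meis3 without vehicle replicate 3, against an SD of 3.69. Some alternative values changed sign in Meis2, Pbx2, Pbx3 and Pknox2, and none did in Meis1, Meis3 and Pknox1. The difference for Pknox2 was -3.12 percentage points in the report and 7.62 without antagomir replicate 1. That for Pbx2 was 2.23 in the report and -6.03 without antagomir replicate 3. The coding shares were not run with libraries left out. With 3 libraries a group, the 95% intervals of the linear fold ran from 0.678 to 2.02 for Meis2 and from 0.360 to 2.63 for Pbx3.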
